A study of Mus musculus with 7 samples.

Results

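Plet1, Sprr2g, Spink8, Fam3d, Ecm1, Krt80, Elf3 and Klf5 are 8 genes linked to surface and lining epithelia, out of 16167 genes in the table of whole mouse kidneys at E15.5. They were chosen by name because their FPKM (fragments scaled for gene length and sequencing depth) was higher in mutant than in control kidneys. That difference is therefore described below and carries no test. The 4 mutant libraries came from Six2-Cre embryos whose Irx3/5 locus was floxed on both chromosomes (loxP/loxP). The 3 control libraries came from littermate embryos floxed on 1 chromosome (loxP/+), whose titles name no Cre and whose genotype field says WT. Both targeted genes code for homeobox factors of the Iroquois family, and Six2-Cre is a recombinase active in the nephron progenitors, so the collecting system, which grows from the ureteric bud, lies outside the lineage it is known for. Deletion and Cre transgene cannot be told apart in this design. Nothing says whether a library was 1 embryo, so the spread between libraries may be technical in part.

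Barrier epithelia separate a wet or outer surface from the tissue below. They do so with keratin filaments, tight junctions, secreted protease inhibitors and, in the skin, a cornified envelope built from small proline-rich proteins. The ETS factor Elf3 and the zinc finger factor Klf5 are transcription factors of such epithelia. In the kidney the nearest counterparts are the ureteric tree, the collecting duct and the urothelium of the pelvis. In RNA of a whole organ, more cells of a type and more RNA per cell cannot be told apart.

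Because the 8 genes were high together, the stretches just before their start sites are shown where a sequence was at hand. A table of RefSeq promoters on GRCm38.p6 held 3 of the 8, and each is given as the 250 bases before the start, 5′ to 3′ on the gene's strand. Capitals mark a TATA box (TATAAA), the core bound by KLF factors (CACCC) or the site of Six-family factors (TCAGGTTNC), on either strand.
Plet1, chr9:50494275-50494524, plus strand: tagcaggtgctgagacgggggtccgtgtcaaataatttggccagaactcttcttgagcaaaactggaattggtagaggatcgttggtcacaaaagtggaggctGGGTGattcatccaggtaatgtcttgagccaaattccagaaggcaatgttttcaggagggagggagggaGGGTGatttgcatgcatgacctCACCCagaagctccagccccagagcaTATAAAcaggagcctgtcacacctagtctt
Ecm1, chr3:95739570-95739819, minus strand: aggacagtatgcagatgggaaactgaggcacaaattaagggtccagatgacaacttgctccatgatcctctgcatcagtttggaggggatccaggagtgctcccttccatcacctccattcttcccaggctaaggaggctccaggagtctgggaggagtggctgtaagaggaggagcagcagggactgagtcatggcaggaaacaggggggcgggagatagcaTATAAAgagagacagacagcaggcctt
Elf3, chr1:135258473-135258722, minus strand: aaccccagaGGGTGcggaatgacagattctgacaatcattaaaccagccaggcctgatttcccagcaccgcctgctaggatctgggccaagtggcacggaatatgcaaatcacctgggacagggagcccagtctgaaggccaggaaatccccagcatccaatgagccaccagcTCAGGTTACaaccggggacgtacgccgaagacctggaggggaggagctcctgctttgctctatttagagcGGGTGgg

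TATAAA begins 30 bases before the Plet1 start and 27 bases before the Ecm1 start, a motif held by 12.4% of the 32851 promoter stretches of that length. CACCC has 3 matches before Plet1, 2 before Elf3 and 0 before Ecm1, against 52.0% of all stretches with at least 1. GGAA, the core of ETS sites, has 2, 4 and 4 matches before Plet1, Ecm1 and Elf3, and 93.4% of all stretches hold it. ACANNTGT, the palindrome bound by Iroquois factors, is in none of the 3 stretches (0 matches each) and in 6.31% of all. TCAGGTTNC, whose letters were chosen after the Elf3 sequence had been read, matches once there, 77 bases before the start, and in 1.07% of all stretches. These are matches of letters only, and no binding was measured here.

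Elf3 (ENSMUSG00000003051.14) and Klf5 (ENSMUSG00000005148.9), the transcription factors among the 8, were higher in mutants by the smallest margins. Elf3 FPKM was 8.21, 8.54 and 9.80 in the controls, in order of replicate number here and below, and 13.8, 13.95, 12.4 and 13.5 in the mutants. Klf5 FPKM was 2.61, 2.22 and 1.71 in the controls and 3.68, 3.75, 3.33 and 4.03 in the mutants. For both genes the lowest mutant lay above the highest control. The ratio of mean FPKM, mutant over control, was 1.52 for Elf3 and 1.70 for Klf5. As a difference of log2(FPKM + 1), mutant minus control, which understates the change of low genes, this was 0.55 (SE 0.077) for Elf3 and 0.57 (SE 0.11) for Klf5. Elf3 varied little within the mutants, with a coefficient of variation (SD over mean) of 5.11%.

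Plet1, Sprr2g and Krt80 encode proteins of the epithelial surface and its scaffold. Plet1 (ENSMUSG00000032068.15) is a membrane-anchored surface protein known from placenta, thymic epithelium and hair follicles. Its FPKM was 8.47, 10.1 and 10.5 in the controls and 23.5, 28.3, 19.9 and 25.2 in the mutants, so that the mutants stood at 24.2 ± 3.53 (SD, n = 4) against 9.71 ± 1.10 (SD, n = 3). The 7 libraries held 843 to 2580 reads of it. The ratio of means was 2.49, and the log2(FPKM + 1) difference 1.23 (SE 0.12). Sprr2g (ENSMUSG00000046203.12), a small proline-rich protein of the cornified envelope family, had the largest ratio of the 8. Its FPKM was 1.34, 2.03 and 3.89 in the controls and 11.5, 15.46, 8.17 and 15.2 in the mutants. The ratio of means was 5.21 and the log2 difference 2.02 (SE 0.30). The gene also spread most within groups, over 2.90-fold in the controls and 1.89-fold in the mutants. It rested on 61 to 104 reads in the controls and 245 to 509 in the mutants, and its value is uncertain where reads of the similar Sprr2 copies could not be told apart. Krt80 (ENSMUSG00000037185.10), a type II keratin of differentiating epithelial cells, was the lowest of the 8 per length in both groups. Its FPKM was 0.651, 0.861 and 0.999 in the controls and 1.44, 2.04, 1.70 and 1.99 in the mutants. That is a ratio of means of 2.14 and a log2 difference of 0.60 (SE 0.11).

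Spink8, Fam3d and Ecm1 encode secreted proteins. Spink8 (ENSMUSG00000050074.13) is a serine protease inhibitor of the Kazal type. Its FPKM was 1.83, 3.16 and 3.83 in the controls and 9.61, 11.01, 6.40 and 9.71 in the mutants, a ratio of means of 3.13 and a log2 difference of 1.38 (SE 0.21). Fam3d (ENSMUSG00000021749.7), a cytokine-like protein best known from the gut, had control FPKM of 0.638, 0.873 and 1.06, against 2.63, 2.26, 1.72 and 2.17 in mutants. Its ratio of means was 2.56 and its log2 difference 0.78 (SE 0.12), on 68 to 222 reads per library. Ecm1 (ENSMUSG00000028108.17), a glycoprotein of the skin and other matrices, was the most abundant of the 8 per length. Its FPKM was 29.2, 31.0 and 35.6 in the controls and 63.7, 49.3, 71.1 and 49.4 in the mutants. The ratio of means was 1.83 and the log2 difference 0.84 (SE 0.14).

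All 8 genes had every mutant above every control, as did 5.93% of the 13466 genes tested, while 8.61% had every mutant below every control. All 8 were among the 64 genes called higher at a limma adjusted p under 0.05 (0.475% of those tested) and among the 1.75% of genes that the authors' deposited table had higher at that threshold. Since the genes were picked for this contrast, nothing is read from these counts. Ordered by log2 difference among the genes tested, Sprr2g came at place 2, Spink8 at 5 and Plet1 at 7, while Elf3 came at place 63. Only genes that reached 1 FPKM in 3 or more libraries were tested. Krt80 reached 1 FPKM in 0 controls and Fam3d in 1, so these 2 entered through the mutants, and the other 6 reached it in all 7 libraries. Of the 8 calls, only that of Plet1 remained without control replicate 1, control replicate 2, mutant replicate 2 or mutant replicate 4. Without control replicate 3 there were 5 calls and without mutant replicate 3 there were 6.

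**Figure D1:**
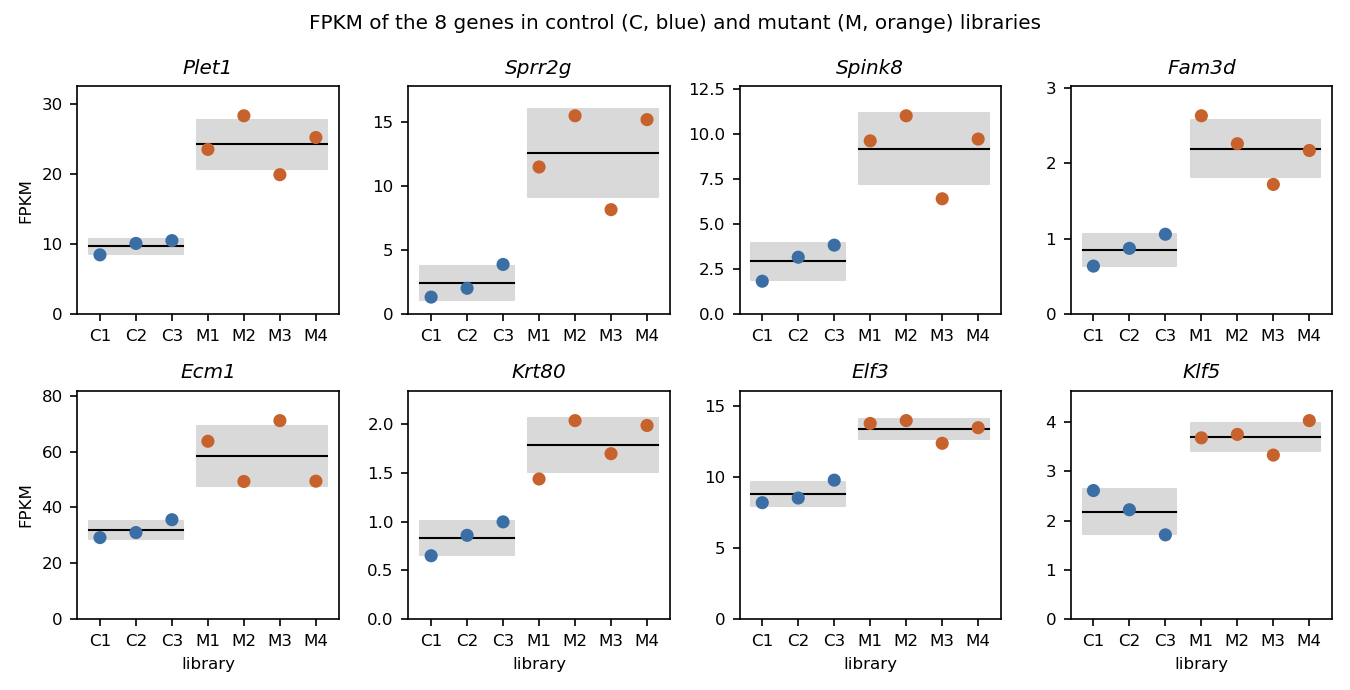
FPKM (vertical axes, each from 0) of the 8 genes in control libraries C1 to C3 (blue) and mutant libraries M1 to M4 (orange), with the group mean as a line and 1 SD on either side as a grey band. In every panel the lowest mutant lies above the highest control, and Sprr2g in M3 (8.17) is the lowest mutant value of that gene.

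The genes shared an order of libraries in part, with Klf5 apart from the others within the controls and Ecm1 within the mutants. Control replicate 1 had the lowest and control replicate 3 the highest value for 7 of the 8 genes, and the order was turned round for Klf5 alone. Mutant replicate 3 had the lowest mutant value for 6 genes, but the highest for Ecm1, and mutant replicate 2 had the highest for 5 genes but the lowest for Ecm1. Krt80 was lowest in mutant replicate 1, where Fam3d was highest. The genes with the largest deviations were Sprr2g, from -0.53 in mutant replicate 3 to 0.58 in control replicate 3 on the log2(FPKM + 1) scale around the group mean, and Spink8, from -0.44 to 0.33.

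As a description over the 7 libraries, the deviations of log2(FPKM + 1) from the group means gave a median Pearson r of 0.36 over the 28 pairs of genes, from -0.73 to 0.93. The median between these genes and all genes tested was 0.04. Among the 15 pairs without Ecm1 and Klf5, named after the values were seen, the median was 0.77 (0.20 to 0.93), and all 15 lay above 0. All 7 pairs with Ecm1 lay below 0 (-0.73 to -0.03), as did all 7 with Klf5 (-0.73 to -0.11). Leaving out these 2 genes removes every pair below 0. The higher median of the 15 pairs follows from that choice, and nothing is read from it. The points share libraries, depth and 2 group means, and libraries are few. Without the removal of group means r ran from 0.71 to 0.99, which mostly repeats the difference between groups for which the genes were chosen, so the relation across groups cannot be tested.

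**Figure D2:**
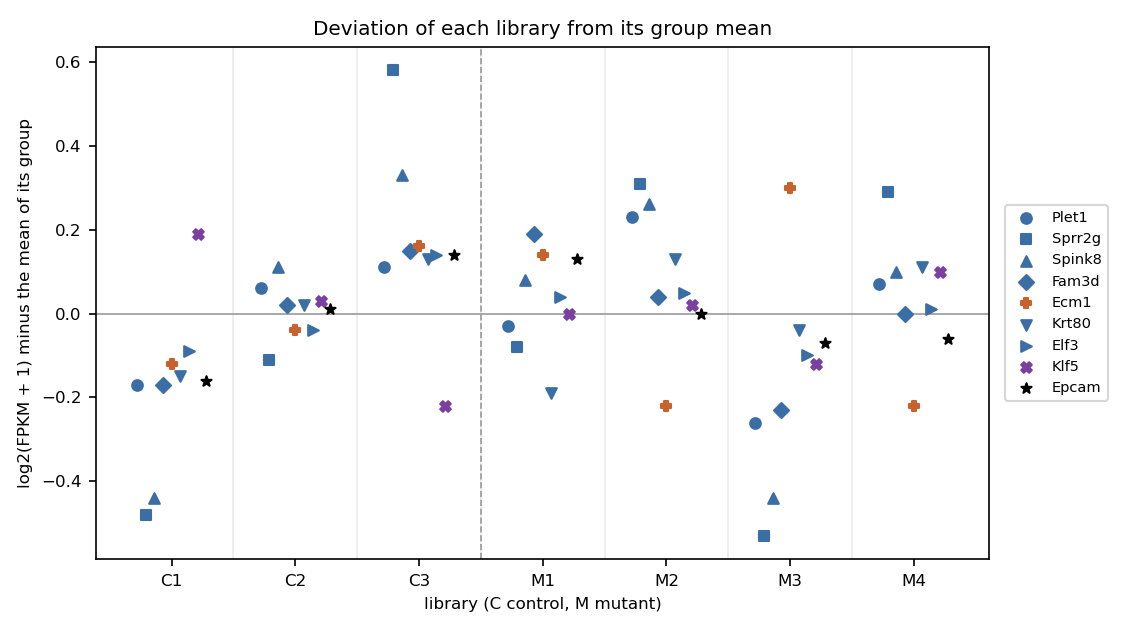
Log2(FPKM + 1) minus the mean of its own group (vertical axis) for the 8 genes and Epcam in each library (C control, M mutant); each symbol is a gene. Sprr2g, Spink8, Plet1, Fam3d, Krt80 and Elf3 (blue) lie below 0 in C1 and M3, Ecm1 (orange) is at 0.30 in M3, and Klf5 (purple) is at 0.19 in C1 and -0.22 in C3.

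Other measures differed between the same libraries. The libraries held 40511920 to 69028943 reads in listed genes, with control replicate 3 the shallowest and control replicate 1 the deepest. Embryonic beta-globin (Hbb-y) as a share of adult Hbb-bs, which falls as embryos age, was 1.34%, 1.39% and 3.45% by FPKM in the controls and 1.38%, 1.53%, 10.5% and 2.24% in the mutants. Control replicate 3 and mutant replicate 3 thus had the highest ratio of their groups, yet 7 of the 8 genes were highest in the first and 6 were lowest in the second. The part of depth or stage in these orders was not tested.

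Epcam, an adhesion protein of most epithelial cells of the kidney, was used to see how far epithelial RNA as such differed. Its FPKM was 70.9, 79.9 and 87.7 in the controls and 96.0, 87.6, 83.0 and 83.7 in the mutants, with overlap (log2 difference 0.14, SE 0.087; limma adjusted p = 0.578). E-cadherin (Cdh1) and keratin 8 (Krt8) overlapped as well, with log2 differences of 0.11 (SE 0.082; limma adjusted p = 0.665) and 0.13 (SE 0.099; limma adjusted p = 0.661). Within the controls Epcam had the same order of libraries as the 7 genes other than Klf5. Within the mutants Epcam was lowest in replicate 3, as were 6 of the 8 genes, and highest in replicate 1, as was Fam3d. Cdh1 and Krt8 did not share this order and were both lowest in mutant replicate 2. Relative to Epcam of the same library, a scaling chosen after the data were seen, each of the 8 genes had every mutant above every control. Nothing is read from that count. The genes were chosen as higher in mutants, Epcam had a ratio of means of only 1.10, and the share of all genes apart on this scale was not counted. The ratio of means per Epcam was 4.89 for Sprr2g, 2.89 for Spink8, 2.34 for Fam3d, 2.27 for Plet1, 1.98 for Krt80, 1.66 for Ecm1, 1.51 for Klf5 and 1.38 for Elf3. Klf5 came closest to overlap, at 36.8 FPKM per 1000 Epcam FPKM in control replicate 1 and 38.4 in mutant replicate 1.

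Relatives of the 8 genes, taken from 6 lists of families and functions and drawn up by function with earlier results of these data known, Cldn23 among them, were mostly not called. Of 155 genes in the lists, 102 were in the table and 90 were tested; 4 rose by limma at an adjusted p under 0.05 (4.44%, against 0.475% of all genes tested), 0 fell and 86 did not pass. Their median log2 difference was 0.08, with 58 above 0 and 32 below, beside a median of -0.002 over all genes tested. All 4 that rose are in the list of junctions and cross-linking enzymes, where 21 of 25 tested genes did not pass. Cldn23, known beforehand, is among the 4 and reached 1 FPKM only in mutants. No excess over all genes is therefore read from these shares. Among the 90, 31 had an unadjusted p under 0.05, as did 13.7% of all genes tested, the share beside which the counts at that p below are to be read.

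Cldn4, a tight junction claudin of the collecting duct, had control FPKM of 30.6, 34.6 and 40.9 and mutant FPKM of 61.1, 59.9, 55.7 and 54.9 (log2 difference 0.70, SE 0.096; limma adjusted p = 0.0156). Cldn23 rose by 1.00 on that scale (SE 0.12; limma adjusted p = 0.00943), a ratio of means of 4.39. It passed the filter only through the mutants, where it reached 1.54 to 2.28 FPKM, and its log2 difference was 1.92 with a pseudocount of 0.1. The cross-linking enzyme gene Tgm2 rose by 0.36 (SE 0.068; limma adjusted p = 0.0438). In these genes the groups did not overlap, and Cldn4 had control replicate 3 highest and control replicate 1 lowest, like most of the 8 genes. Their calls depended on single libraries. Of the 4 calls, none remained without control replicate 1 or control replicate 2 (0 calls each), Cldn23 alone did without mutant replicate 2 or 4, and Cldn23 and Cldn4 did without mutant replicate 3. Without control replicate 3 the calls of Cldn23 and Cldn4 remained and that of Tgm2 did not, and without mutant replicate 1 the count was 7 higher and 5 lower.

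The epidermal differentiation complex is a cluster of genes for cornified envelope and S100 proteins to which Sprr2g belongs. Of its 41 listed genes besides Sprr2g, 14 were in the table and 12 were tested; 0 changed by limma, 4 had an unadjusted p under 0.05 and 1 was higher in the authors' deposited table. That gene was Sprr2f, a close relative of Sprr2g, with FPKM of 4.13, 4.58 and 7.80 in the controls and 17.6, 12.8, 8.63 and 13.3 in the mutants. The log2 difference was 1.12 (SE 0.26; limma adjusted p = 0.0891), and the authors' deposited table gave an adjusted p of 4.55e-04. As for Sprr2g, control replicate 3 was the highest control and mutant replicate 3 the lowest mutant. S100a14 had a log2 difference of 0.52 (SE 0.17; limma adjusted p = 0.187) with overlapping groups. The list's median was 0.25, with 11 of 12 genes above 0. Lor, which encodes loricrin, a main protein of the cornified envelope, went the other way. It was too low to be tested, at 0.732, 0.620 and 0.438 FPKM in the controls and 0.250, 0.0240, 0.0732 and 0.142 in the mutants, and the authors' deposited table had it lower with an adjusted p of 0.00805; it was named after its values were seen.

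**Figure D3:**
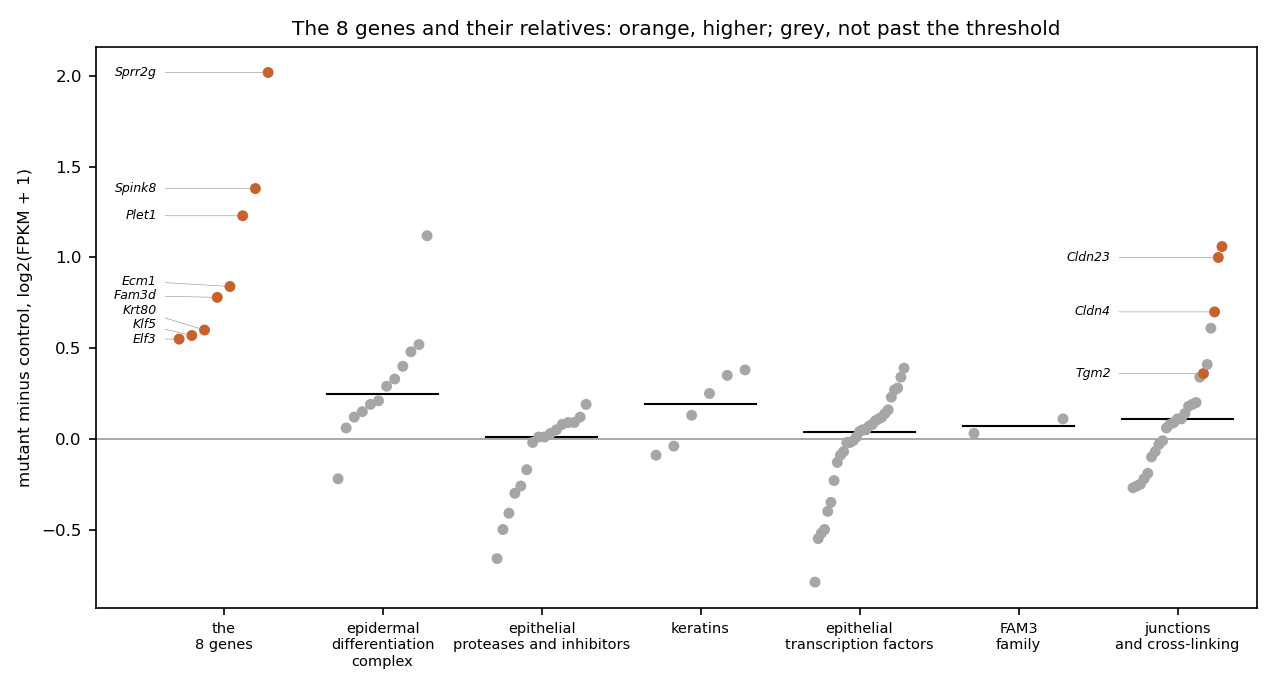
Difference in log2(FPKM + 1), mutant less control (vertical axis), for the 8 genes and for the tested genes of the 6 lists of relatives; each point is a gene, the black line the median of each list of relatives, and orange marks genes higher at a limma adjusted p under 0.05. Beside the 8 genes, all 4 orange points are among junctions and cross-linking, and those labelled are Cldn23 (1.00), Cldn4 (0.70) and Tgm2 (0.36).

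Other keratins gave 0 calls among 6 tested genes, with 3 at an unadjusted p under 0.05 and 1 higher in the authors' deposited table. Krt18 and Krt19, keratins of simple epithelia, had log2 differences of 0.25 (SE 0.088; limma adjusted p = 0.240) and 0.35 (SE 0.10; limma adjusted p = 0.149). In both the groups were apart, Krt19 lying at 13.5 to 14.6 FPKM in the controls and 15.4 to 21.3 in the mutants. The proteases and inhibitors related to Spink8 gave 0 calls among 16, with 3 at an unadjusted p under 0.05, 0 in the authors' deposited table and a median of 0.01. Those with the smallest p both had a lower mean in mutants, the kallikrein gene Klk1 (log2 difference -0.66, SE 0.16; limma adjusted p = 0.0891), which passed the filter only through the controls and was at -1.62 with a pseudocount of 0.1, and the Kunitz inhibitor gene Spint2 (-0.41, SE 0.13; limma adjusted p = 0.189). Fam3c and Fam3a, the family members of Fam3d that were tested, differed by 0.11 (SE 0.057; limma adjusted p = 0.488) and 0.03 (SE 0.066; limma adjusted p = 0.938).

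Transcription factors of epithelia other than Elf3 and Klf5 gave 0 calls among 29 tested, with 12 at an unadjusted p under 0.05 and a median of 0.04. By the authors' deposited table, 4 of them were higher and 5 lower. The retinoic acid receptor gene Rarb had a log2 difference of 0.28 (SE 0.058; limma adjusted p = 0.0557) and Tfap2b, a factor of the distal nephron, -0.40 (SE 0.088; limma adjusted p = 0.0714), each with the groups apart. Ehf, an ETS factor closely related to Elf3 and named after its values were seen, had control FPKM of 9.14, 9.11 and 9.38 and mutant FPKM of 9.86, 13.3, 12.97 and 11.9 (log2 difference 0.34, SE 0.098; limma adjusted p = 0.136). Klf4, the KLF factor of the skin barrier, also named afterwards, overlapped between groups at 2.85 to 4.22 and 3.78 to 5.73 FPKM.

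Marker lists of cell types that could carry these genes were summed by library. Of the genes named from them, Calb1, Pou3f3, Cldn16, Bsnd, Kcnj10 and Wt1 were known from earlier results of these data when the lists were made. The summed FPKM of 20 ureteric tree and collecting duct genes was 527 to 551 in the controls and 565 to 623 in the mutants, and 1 of the 20 tested rose, 0 fell and 19 did not pass (median log2 difference -0.01). Calb1, which codes for calbindin and marks the ureteric tree and connecting segment, was the one called (log2 difference 0.73, SE 0.12; limma adjusted p = 0.0325; 36.8, 39.4 and 53.3 FPKM in controls and 65.5 to 78.2 in mutants), a call that was kept in 2 of 7 omissions of a library. The authors' deposited table had 4 of the 20 higher and 3 lower, beside 282 higher and 604 lower of its 16153 genes with an adjusted p. Aqp2, the water channel of the collecting duct, had control FPKM of 3.37, 4.84 and 2.69 and mutant FPKM of 1.17 to 2.25 (log2 difference -0.83, SE 0.19, limma adjusted p = 0.0775). With Wnt11, Etv4 and Tfcp2l1 it made up the 4 genes with every mutant below every control. The 5 with every mutant above every control were Calb1, Krt18, Ret, Wnt9b and Gata3. Ret, Wnt9b and Gata3 stood at 1.45, 1.29 and 1.19 times the control mean, and Wnt11, Etv4 and Tfcp2l1 at 0.713, 0.861 and 0.777 times. Of these genes only Calb1 passed the test. Of all genes tested, 5.93% had every mutant above every control and 8.61% had every mutant below. Calls were 0.475% higher and 1.05% lower. Without Calb1 and the general epithelial genes Krt8, Krt18, Epcam and Cdh1, the other 15 genes summed to 234 to 246 FPKM in the controls and 222 to 233 in the mutants. That choice was made after the values were seen, as was the naming of Aqp2, Wnt11, Etv4, Tfcp2l1, Ret, Wnt9b and Gata3. The genes left out all had a higher mean in mutants, so a lower remainder follows in part from the choice and nothing is read from it. Urothelial genes summed to 24.7 to 33.3 FPKM in the controls and 22.6 to 35.3 in the mutants, with 0 of 8 called and 1 at an unadjusted p under 0.05. In that list Foxa1 had a log2 difference of 0.39 (SE 0.093; limma adjusted p = 0.0824), while the uroplakin gene Upk3a overlapped at 4.88 to 9.62 and 1.97 to 6.30 FPKM. The sum of 15 genes of the loop of Henle and distal tubule was lower, at 75.6 to 91.0 FPKM in the controls and 36.1 to 57.9 in the mutants. Of its 13 tested genes 4 fell, against 1.05% of all genes tested, and 9 did not pass. The 4 were Pou3f3, Cldn16, Bsnd and Kcnj10, with log2 differences of -0.49 to -1.11. All 13 lay below 0 (median -0.54), and 9 had every mutant below every control, against 8.61% of all genes tested. An unadjusted p under 0.05 was found for 9, and the authors' deposited table had 7 lower and 0 higher. The 4 calls were each kept in 1 or 2 of 7 omissions. The part of cell composition in the values of the 8 genes was not tested.

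Injured tubules are known to express epithelial genes such as keratins and Sox9. The 14 injury genes in the table summed to 191 to 193 FPKM in the controls and 178 to 209 in the mutants. Most of each sum was Sox4 and Clu, both named after their values were seen. Each overlapped between groups, Sox4 at 60.7 to 67.4 and 59.2 to 71.4 FPKM and Clu at 51.7 to 61.7 and 46.6 to 61.0. The sum therefore says little about the other injury genes. Of 11 tested, 0 rose and 1 fell, Spp1, which encodes osteopontin (log2 difference -1.08, SE 0.20; limma adjusted p = 0.0434), a call kept in 2 of 7 omissions. An unadjusted p under 0.05 was found for 6 of the 11, and the authors' deposited table had 3 higher and 2 lower. Cdkn1a, Sox9 and Vcam1, named after their values were seen, had every mutant above every control, at 1.42, 1.22 and 1.25 times the control mean (limma adjusted p of 0.0945, 0.133 and 0.133). The 2 genes with every mutant below every control were Spp1 and Itgb6. Over all genes tested these shares were 5.93% above and 8.61% below, with 0.475% called higher and 1.05% lower. Itgb6, also named afterwards, was at 0.561 times the control mean (limma adjusted p = 0.0907). Epidermal markers were at or near the bottom of the scale, with 6 of 10 in the table and a sum of 4.87 to 5.24 FPKM in the controls and 3.93 to 4.82 in the mutants, most of it Krt10. Krt10 was the 1 gene tested there and overlapped (limma adjusted p = 0.823). Gut markers were down to Vil1 and Lgr5, 2 of 10, with limma adjusted p of 0.0856 (log2 difference -0.58) and 0.999. Vil1 is also a gene of the proximal tubule. Mesothelial genes summed to 69.0 to 76.9 FPKM in the controls and 60.5 to 67.8 in the mutants, of which Wt1, also a gene of podocytes and nephron progenitors, made up most and fell (log2 difference -0.41, SE 0.056; limma adjusted p = 0.0156; call kept in 3 of 7 omissions), while Upk3b and Msln stayed near or below 1 FPKM. The name of barrier genes rests on what is known of these genes in other epithelia, and no barrier function was measured here. The epidermal markers listed here were low or were not in the table. Among them Lor, too low to be tested, had every mutant below every control. The envelope genes Sprr1a and Sprr2f were not low, at mean FPKM of 6.62 and 5.50 in controls and 9.95 and 13.1 in mutants. Sprr1a, also named afterwards, overlapped between groups (limma adjusted p = 0.578), and neither was called. In the list of the epidermal differentiation complex 11 of 12 tested genes lay above 0.

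**Figure D4:**
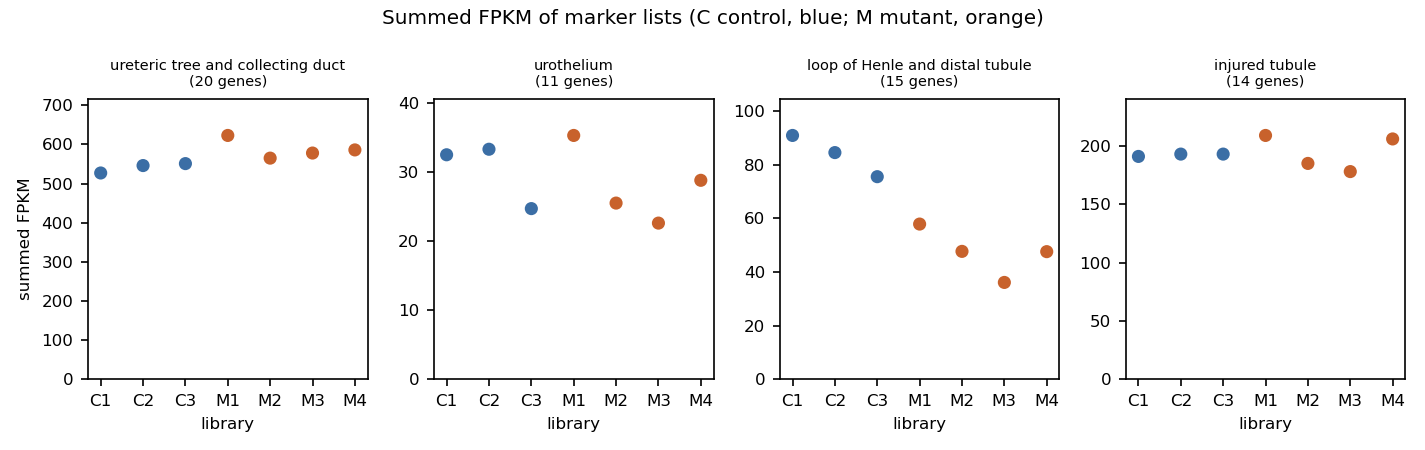
Summed FPKM (vertical axes, each from 0) of marker lists in control libraries C1 to C3 (blue) and mutant libraries M1 to M4 (orange). Ureteric and collecting duct genes lie at 527 to 551 and 565 to 623. The urothelial and injury sums overlap between groups, and most of the injury sum is Sox4 and Clu. Loop and distal tubule genes are at 75.6 to 91.0 in controls and 36.1 to 57.9 in mutants.

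The genes most alike to the 8 were sought by Pearson r, over the 7 libraries, with the mean of their standardized values. These were Crym (r = 0.989), Tec (0.987), Tm4sf20 (0.984), Cldn4 (0.978) and Cyp7b1 (0.977), given as a description, since any gene apart between groups scores high. Crym encodes a thyroid hormone-binding crystallin and had control FPKM of 36.9, 36.7 and 40.2 and mutant FPKM of 53.0, 51.3, 50.4 and 51.7. Tm4sf20, a tetraspan membrane protein, had control FPKM of 0.731, 0.787 and 0.888 and mutant FPKM of 2.29, 2.00, 1.71 and 1.87, with control replicate 1 and mutant replicate 3 lowest in their groups, as for Plet1, Sprr2g, Spink8, Fam3d and Elf3. Tec encodes a tyrosine kinase and Cyp7b1 a sterol hydroxylase, at 1.27 and 1.48 times the control mean.

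The targeted genes were measured in the same libraries. Irx3 was at 12.7 to 14.7 FPKM in the controls and 3.98 to 6.75 in the mutants, and Irx5 at 1.36 to 1.59 and 0.895 to 2.05. Six3, a homeobox gene with the largest log2 difference of all genes tested, was at 0.0158 to 0.0671 FPKM in the controls and 4.37 to 5.41 in the mutants. Among the mutants, Six3 was lowest in replicate 2, where 5 of the 8 genes were highest, and highest in replicate 3, where 6 were lowest.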

How the data were processed

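Whole embryonic kidneys were profiled by RNA-seq in 7 libraries, and groups and replicate numbers came from the sample titles. Controls were littermates per the series design text, but nothing there says which libraries share a litter or whether each was a separate embryo. The p-values thus set the difference between groups against the spread between these libraries, which may not be the spread between embryos. Per the labels' protocols, libraries were made with a directional kit. Per the submitters' processing notes, the authors used HTSeq 0.6.1p2, STAR 2.6.0c, DESeq2, FastQC 0.11.5 and Trim Galore 0.5.0, with build mm39; strand setting, annotation and gene lengths are not given in the sources used here. The authors deposited 1 table of 16167 genes with FPKM per library. Per the file headers the deposited table also holds the mean of normalized counts (a signal), the log2 fold change with its error, the test statistic (a score) and p-values of DESeq2.

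Reads were recovered from these values (100.0% within 0.05 of a whole number) and served for depth. Genes with at least 1 FPKM in at least 3 libraries (13466; 2701 left out) were tested with limma 3.58.1 (R 4.3.3) on log2(FPKM + 1), trended and robust, two-sided, Benjamini-Hochberg adjusted over all of them, with a threshold of 0.05. The fit was tested on simulated counts. Error of low values is counting error in part. The 8 genes, the 6 lists of relatives and the 7 lists of cell types were chosen with earlier results of these data known. The genes named were the 8, up to 4 called genes per list or else the 2 with the smallest p, the 5 most alike to the 8, the targeted genes, Six3, and 2 globins. Epcam, Cdh1, Krt8, Ehf, Klf4, Lor, Sprr1a, Upk3b, Msln, Aqp2, Wnt11, Etv4, Tfcp2l1, Ret, Wnt9b, Gata3, Cdkn1a, Sox9, Vcam1, Sox4, Clu and Itgb6 were named after their values were seen. Alternatives were another pseudocount (0.1), no filter or one at 5 FPKM, quantile and median-of-ratios scaling, the deposited test, omission of each library, a plain limma fit with neither trend nor robust steps, and a block for replicate number; limma-voom on recovered reads and values relative to Epcam were added after seeing the data. Files were read with Python 3.11.15, numpy 2.4.6 and pandas 2.3.3, and plotted with matplotlib 3.10.9. RefSeq promoters are on GRCm38.p6, not the build of the table, and were matched by symbol; Sprr2g, Spink8, Fam3d, Krt80 and Klf5 had no entry. The values of 1 called gene of the lists are not reported here. No coordinates were joined between builds.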

Additional observations from a re-analysis of the deposited data

Results flagged for a closer look

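Hbb-y, the embryonic beta-globin gene, stood at 149 FPKM in mutant replicate 3, far from the 27.0 to 39.7 of the other 3 mutants. Its gap to the nearest of them was 0.897 of the group's range, above Dixon's critical value for 4 samples. Of 55 genes looked at in this way, this was the 1 that stood out, and chance alone gives about 1 in 20. A share of 1 in 55 is no more than that, so nothing is read from the flag. Mutant replicate 3 is also the mutant with the lowest values of 6 of the 8 genes, among them Sprr2g at 8.17 FPKM and Spink8 at 6.40. Without that library the log2 differences of the 8 genes stayed above 0. They must do so where every mutant lies above every control, so nothing is read from this.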

How the results depend on the processing

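Chosen as higher in mutants, the 8 genes stayed so under each alternative that gave them a value, and nothing is read from that. Fam3d, Krt80 and Klf5 had no value with a minimum of 5 FPKM. Omitting 1 library at a time, the log2 difference ran from 1.14 to 1.32 for Plet1, 1.78 to 2.31 for Sprr2g, 1.16 to 1.55 for Spink8, 0.70 to 0.86 for Fam3d, 0.74 to 0.92 for Ecm1, 0.53 to 0.67 for Krt80, 0.51 to 0.62 for Elf3 and 0.46 to 0.67 for Klf5. The number of the 8 called ran from 1 to 8 in these omissions, that of relatives from 0 to 7 higher and 0 to 5 lower, and that of all genes from 4 to 113 higher and 7 to 373 lower. Fewer libraries also lower the power of the test. With a pseudocount of 0.1, 44 genes were higher and 65 lower in all, and 7 of the 8 were called, Klf5 missing. The log2 difference then was 1.27 for Fam3d, 1.02 for Krt80 and 0.75 for Klf5; the authors' deposited columns gave 1.37, 1.11 and 0.76 and limma-voom 1.41, 1.13 and 0.74. For Cldn23 these settings gave 1.92, 2.16 and 2.20, against 1.00. With no filter 1 relative was lower. With a minimum of 5 FPKM, 31 genes were higher and 29 lower, 2 relatives were higher and 5 of the 8 genes were called. The authors' deposited DESeq2 columns gave 282 higher and 604 lower genes, with 12 relatives higher and 6 lower. With limma-voom on recovered reads, 1 relative, Tfap2b, was lower. The replicate block left 1 gene higher and 1 lower, 0 relatives and 0 of the 8; same-numbered libraries did not deviate together (r of -0.16, 0.03 and 0.10 across genes), so the numbers were not taken to pair them. The cause of the other shifts was not tested. Reads were fewest for Sprr2g, Fam3d and Spink8, at 61, 68 and 105 in their lowest library.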
